A study of Arabidopsis thaliana with 72 samples.

Results

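The 7 genes described here encode UDP-glycosyltransferases (UGTs) of Arabidopsis thaliana: UGT73B1 (AT4G34138), UGT73B2 (AT4G34135), UGT73B3 (AT4G34131), UGT73B4 (AT2G15490), UGT73B5 (AT2G15480), UGT74E2 (AT1G05680) and UGT75B1 (AT1G05560). They were taken by locus identifier, with earlier results of these data known. Their counts beside the shares of all genes are therefore descriptions. All 7 were among the 22884 genes of the deposited table and passed the filter on low values in roots. In shoots and in the fit of both tissues that filter removed no gene. Transcripts were sequenced from roots and shoots of seedlings aged 14 days that had received 21 µM t-chalcone, taken at 1, 3, 6, 12 and 24 h, or 0.1% ethanol (EtOH) as the control, taken at those times and at 0 h. Each of the 22 groups held 3 libraries, and the 6 columns labelled as untreated at 0 h were identical to the EtOH columns at 0 h in every gene and were counted once, which left 66 libraries. The labels name no ecotype, mutation or transgene, and they do not say in what t-chalcone was dissolved. Nor do they say that the 3 libraries of a group came from separate plates, so p-values measure only the spread between these libraries, which may be technical.

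UGTs move a sugar, usually glucose from UDP-glucose, onto small molecules such as flavonoids, hormones and foreign compounds. The sugar makes its acceptor more soluble and lets transporters place it in the vacuole, and many genes of the family are known to respond to xenobiotics, oxidative stress or pathogens. t-Chalcone has the open-chain carbon skeleton from which flavonoids are built, and it is toxic to seedlings when supplied from outside. The UGT73B enzymes are known for glucosylating flavonols and other phenolic compounds in vitro, UGT74E2 for glucosylating the auxin indole-3-butyric acid, and UGT75B1 for glucosylating p-aminobenzoic acid and for its place at the forming cell plate.

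The genes lie in 3 places of the TAIR10.1 assembly. UGT73B3, UGT73B2 and UGT73B1 follow each other on the minus strand of chromosome 4, at chr4:16343057-16344818, chr4:16345150-16347434 and chr4:16347997-16350203. UGT73B5 (chr2:6758430-6763501) and UGT73B4 (chr2:6761635-6763500) are on the plus strand of chromosome 2, and an annotated transcript of UGT73B5 runs on through UGT73B4 and shares 255 exon bases with it. UGT74E2 (chr1:1703002-1704838) and UGT75B1 (chr1:1645300-1647435) are on the minus strand of chromosome 1. The coding sequences of UGT73B4 and UGT73B5 were 92.0% identical over 1446 aligned bases, with an identical stretch of 140 bases. Those of UGT73B2 and UGT73B3 were 89.4% identical over 1443 aligned bases, with an identical stretch of 82 bases. The sources used here do not give how reads that match both copies were counted, so values within each of these pairs are uncertain. Genes annotated on the opposite strand overlap UGT73B1, UGT73B3 and UGT75B1, and no source states that strand was used in counting, so reads of the overlapping genes cannot be told apart.

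The 250 bases before the annotated gene start are shown for the 4 genes whose window holds TGACG, the core recognised by TGA transcription factors, which act with the regulator SCL14 on detoxification genes. Capitals mark each TGACG on either strand (CGTCA where it lies on the other strand), and each line reads 5′ to 3′ on the gene's own strand, from RefSeq's TAIR10.1.
UGT73B1, chr4:16350204-16350453, minus strand: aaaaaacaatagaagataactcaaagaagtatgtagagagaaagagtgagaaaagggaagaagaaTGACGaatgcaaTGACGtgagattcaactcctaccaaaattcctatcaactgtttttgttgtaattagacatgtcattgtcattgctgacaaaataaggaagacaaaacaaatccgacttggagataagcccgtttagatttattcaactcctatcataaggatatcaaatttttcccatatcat
UGT73B3, chr4:16344819-16345068, minus strand: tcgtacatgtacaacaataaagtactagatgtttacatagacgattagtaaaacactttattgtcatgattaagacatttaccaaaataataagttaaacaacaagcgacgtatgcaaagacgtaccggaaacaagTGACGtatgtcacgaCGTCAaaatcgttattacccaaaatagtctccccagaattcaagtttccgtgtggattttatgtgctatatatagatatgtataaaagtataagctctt
UGT73B4, chr2:6761385-6761634, plus strand: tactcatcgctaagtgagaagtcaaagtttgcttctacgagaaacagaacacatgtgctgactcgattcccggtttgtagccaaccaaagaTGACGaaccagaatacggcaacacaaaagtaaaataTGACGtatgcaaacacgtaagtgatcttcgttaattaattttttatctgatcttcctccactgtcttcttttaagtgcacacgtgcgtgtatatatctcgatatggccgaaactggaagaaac
UGT73B5, chr2:6758180-6758429, plus strand: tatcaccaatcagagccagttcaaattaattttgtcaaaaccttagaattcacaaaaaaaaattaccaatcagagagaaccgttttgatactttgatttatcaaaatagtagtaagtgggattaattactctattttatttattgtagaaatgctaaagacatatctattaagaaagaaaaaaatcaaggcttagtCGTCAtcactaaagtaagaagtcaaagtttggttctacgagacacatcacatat
The windows of UGT73B1, UGT73B3 and UGT73B4 held 2 copies each and that of UGT73B5 held 1, while those of UGT73B2, UGT74E2 and UGT75B1 held none. The window of UGT73B4 lies inside the annotated span of UGT73B5. Among 22698 genes with such a window, 19.1% held at least 1 copy and 3.4% held 2 or more. A copy of UGT73B1 overlaps ACGTG, the core of G-box elements, which occurred on either strand in 23.9% of windows. A copy of UGT73B3 overlaps TTGAC, the core recognised by WRKY factors, which occurred in 45.4% of windows. The mitochondrial dysfunction motif, to which NAC013 and NAC017 bind, was in none of the 7 windows on either strand and in 1.59% of all windows. A match describes letters only, and binding was not measured here.

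In roots at 1 h, all 7 genes rose with t-chalcone, by 1.13 to 2.92 on the log2 scale, and in each of them the 3 t-chalcone libraries lay above the 3 EtOH libraries. Of the 19835 genes tested in roots, 1.57% rose at 1 h and 11.7% had all 3 libraries above all 3. The median change was 1.97 over the 7 genes and -0.01 over all genes. Levels below are deposited normalized counts, and changes are t-chalcone minus EtOH on log2(value + 1) with the standard error, from limma with Benjamini-Hochberg adjustment over all genes tested and a threshold of 0.05. Counts of genes with an unadjusted p under 0.05 stand without a share of all genes, since none was taken by that rule.

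UGT75B1 had 1044, 777 and 895 in t-chalcone roots, against 126, 96.3 and 134 in EtOH roots, a change of 2.92 ± 0.34 (limma adjusted p = 5.74e-07). UGT74E2 had 838, 794 and 702 in t-chalcone roots, against 138, 89.4 and 110.4 in EtOH roots, a change of 2.80 ± 0.24 (limma adjusted p = 9.05e-10). Every t-chalcone value of both genes stood far above every EtOH value, and these were the 2 largest changes among the 49 UGT genes tested in roots. UGT73B4 had 685, 532 and 599 in t-chalcone roots, against 114, 129 and 167 in EtOH roots, a change of 2.15 ± 0.36 (limma adjusted p = 0.000124). UGT73B4 is known for conjugating transformation products of the explosive TNT, and its groups were well apart. UGT73B5 had 1692, 1087 and 1231 in t-chalcone roots, against 466, 428 and 389 in EtOH roots, a change of 1.62 ± 0.15 (limma adjusted p = 2.81e-09). The first t-chalcone library was the highest for both UGT73B4 and UGT73B5, and the groups did not overlap in either.

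UGT73B2 had 2236, 1376 and 1696 in t-chalcone roots, against 406, 429 and 499 in EtOH roots, a change of 1.97 ± 0.23 (limma adjusted p = 5.69e-07). UGT73B3 had 2168, 1352 and 1554 in t-chalcone roots, against 436, 437 and 452 in EtOH roots, a change of 1.91 ± 0.16 (limma adjusted p = 3.96e-10). In both genes the t-chalcone libraries spread widely, with the first highest and the second lowest, and the EtOH libraries lay close together below them. UGT73B3 and UGT73B5 are known to be needed for full resistance to Pseudomonas syringae. UGT73B1 had 2300.1, 1659 and 2030.2 in t-chalcone roots, against 973, 886 and 864 in EtOH roots, a change of 1.13 ± 0.23 (limma adjusted p = 0.00175). UGT73B1, known to glucosylate abscisic acid in vitro, had the smallest change of the 7, with separate groups.

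**Figure D1:**
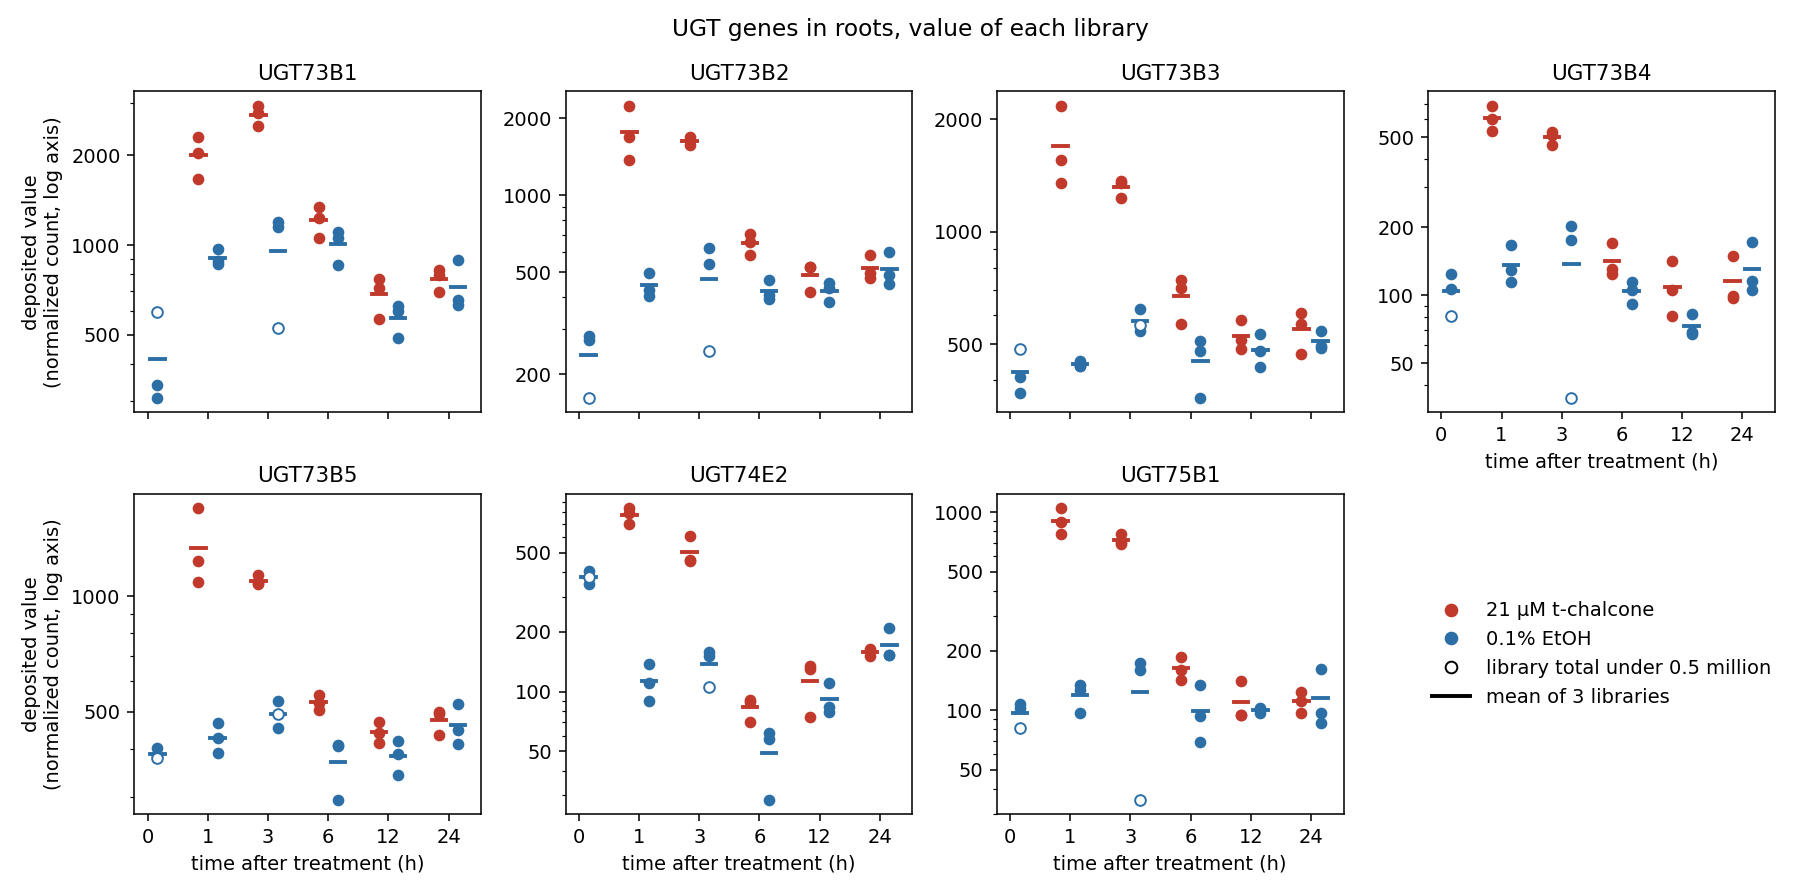
Deposited normalized count (log axis) of each gene in every root library by time after treatment (h), t-chalcone in red left of EtOH in blue, with bars at the mean of 3 libraries and open circles for libraries with a recovered total under 0.5 M. At 1 and 3 h the red points of all 7 genes lie above the blue ones, and at 12 and 24 h they overlap.

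At 3 h in roots all 7 genes were again higher, by 1.15 to 2.85 on the log2 scale, with separate groups in each. At this time 10.3% of all genes tested rose and 24.2% had all 3 libraries above all 3. The median change was 1.88 over the 7 genes and 0.15 over all genes. EtOH replicate 1 at 3 h had a recovered total under 0.5 M (M, mega), and in it UGT73B4 and UGT75B1 were both at 35.3, the lowest value that library holds.

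UGT75B1 had 771, 709 and 691 in t-chalcone roots, against 35.3, 159.6 and 174 in EtOH roots, a change of 2.85 ± 0.34 (limma adjusted p = 9.01e-07). Without the libraries under 0.5 M the change was 2.11 ± 0.23 (limma adjusted p = 1.89e-07). UGT73B4 had 463, 509 and 526 in t-chalcone roots, against 35.3, 175 and 202 in EtOH roots, a change of 2.20 ± 0.36 (limma adjusted p = 8.72e-05). In both genes the shallow EtOH library lay well below the other 2, and the t-chalcone libraries were above all 3. Without the libraries under 0.5 M the change of UGT73B4 was 1.40 ± 0.22 (limma adjusted p = 6.25e-05). UGT74E2 had 606, 453 and 461 in t-chalcone roots, against 106, 158 and 151 in EtOH roots, a change of 1.88 ± 0.24 (limma adjusted p = 2.28e-06). All 3 t-chalcone values of UGT74E2 were below its t-chalcone values at 1 h and above its EtOH values.

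UGT73B1 had 2512, 2775 and 2922 in t-chalcone roots, against 529, 1196 and 1149.9 in EtOH roots, a change of 1.60 ± 0.23 (limma adjusted p = 1.53e-05). For UGT73B1 the t-chalcone mean at 3 h, 2736 ± 208 (SD, n = 3), was the highest of its 22 groups. UGT73B2 had 1574, 1627 and 1685 in t-chalcone roots, against 247, 540.1 and 624 in EtOH roots, a change of 1.90 ± 0.23 (limma adjusted p = 1.03e-06). The shallow EtOH library was the lowest for both UGT73B1 and UGT73B2, and their changes without the libraries under 0.5 M were 1.22 ± 0.16 and 1.49 ± 0.16. UGT73B3 had 1233, 1369 and 1353 in t-chalcone roots, against 564, 544 and 621 in EtOH roots, a change of 1.19 ± 0.16 (limma adjusted p = 3.78e-06). UGT73B5 had 1073, 1131 and 1079 in t-chalcone roots, against 494, 452 and 534 in EtOH roots, a change of 1.15 ± 0.15 (limma adjusted p = 2.08e-06). The t-chalcone libraries of these genes lay close together and clear of the EtOH libraries. Without the libraries under 0.5 M all 7 genes passed at 1 h and at 3 h, where 2.91% and 5.47% of all genes rose.

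At 6 h in roots 6 of 7 genes had all 3 t-chalcone libraries above all 3 EtOH libraries, against 9.19% of all genes, with changes between 0.27 and 0.81 over the 7. None passed limma's threshold, against 0.378% of all genes, while 5 had an unadjusted p under 0.05. The last of the 5 by limma's p, UGT75B1, ranked 747 of 19835 genes. The quasi-likelihood test of edgeR called 3, UGT73B2, UGT73B3 and UGT73B5, against 1.02% of all genes, and limma without the libraries under 0.5 M also called 3, against 0.976%. UGT74E2 had 70.5, 88.9 and 90.1 in t-chalcone roots, against 28.5, 61.6 and 57.6 in EtOH roots, a change of 0.81 ± 0.24 (limma adjusted p = 0.183). UGT73B3 had 742, 709 and 567 in t-chalcone roots, against 359.9, 511 and 479 in EtOH roots, a change of 0.59 ± 0.16 (limma adjusted p = 0.104, and 0.0324 without the libraries under 0.5 M). Both genes had separate groups at lower t-chalcone levels than at 1 and 3 h. UGT73B1 was the gene whose groups overlapped, with 1338, 1235 and 1058 in t-chalcone roots and 858, 1107 and 1057 in EtOH roots.

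At 12 and 24 h in roots the groups of all 7 genes overlapped, with changes of 0.11 to 0.54 at 12 h and of -0.18 to 0.10 at 24 h. Of all genes, 4.27% and 5.48% had all 3 libraries above all 3, and 0.0252% and 0.0605% rose by limma. No gene of the 7 passed or had an unadjusted p under 0.05 in limma at either time. At 12 h edgeR called 1, UGT73B4 (edgeR adjusted p = 0.0435), against 1.45% of all genes, and at 24 h it called none and gave none an unadjusted p under 0.05, against 0.494%. UGT75B1, with the largest change at 1 h, had 112, 97.3 and 123 in t-chalcone roots at 24 h, against 86.4, 97.1 and 162 in EtOH roots. The ranges of its groups overlapped. All 3 t-chalcone root libraries at 24 h carried an S-number library label and no EtOH root library at 24 h did. Label and treatment thus coincide in roots at 24 h and cannot be told apart there. With that label as a term in the fit the changes at 24 h were 0.04 to 0.47, and none passed (limma, adjusted p = 1.00 for each). The term rests on the labelled root libraries at 12 h, EtOH replicate 1 and t-chalcone replicate 1. This fit therefore cannot decide whether the genes changed at 24 h.

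The change differed between the 5 times in all 7 genes in roots (F test of limma, adjusted p between 1.81e-06 for UGT74E2 and 0.00495 for UGT73B1), against 8.21% of all genes.

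In shoots at 1 h the changes were 1.00 to 1.95 on the log2 scale, and 6 of 7 genes had all 3 t-chalcone libraries above all 3 EtOH libraries, against 10.1% of all genes. UGT73B3 passed the threshold, against 0.0262% of the 22884 genes tested in shoots, while 6 genes had an unadjusted p under 0.05 and edgeR called 4, against 0.192% of all genes. By limma's p the last of the 6, UGT73B1, ranked 165 of 22884 genes. UGT73B3 had 169, 240.2 and 129.9 in t-chalcone shoots, against 56.5, 69.6 and 32.6 in EtOH shoots, a change of 1.77 ± 0.33 (limma adjusted p = 0.0381). The groups did not overlap, but the call was lost with the library label in the fit (limma, adjusted p = 0.0505) and when any 1 of the 6 libraries but t-chalcone replicate 3 was left out (limma, adjusted p of 0.0772 to 0.260). No shoot library at 1 h carries the S-number label. The term therefore left the change itself as it was and acted through the fit shared by all times.

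Of the shoot libraries, 3 had totals under 0.5 M (EtOH replicate 2 at 12 h, EtOH replicate 3 at 24 h and t-chalcone replicate 2 at 24 h), and they entered the shared estimate of the spread at every time. Without them 3 genes rose at 1 h, UGT73B1, UGT73B2 and UGT73B3, against 0.282% of the 19116 genes then kept. The full fit in shoots kept 22884, so the adjustment changed along with the spread. UGT73B1 had 984, 912 and 875 in t-chalcone shoots, against 401, 376 and 397 in EtOH shoots, a change of 1.24 ± 0.45 with all libraries and of 1.24 ± 0.16 without the 3 (limma adjusted p = 1.00 and 0.000182). UGT73B2 had 289, 488 and 363 in t-chalcone shoots, against 151, 168 and 89.7 in EtOH shoots, a change of 1.49 ± 0.41 (limma adjusted p = 0.402 with all libraries and 0.00870 without the 3). The groups of both genes were separate, and none of the 3 shallow libraries is among the 1 h groups. UGT73B4 had 19.3, 18.3 and 16.4 in t-chalcone shoots, against 2.24, 5.31 and 4.81 in EtOH shoots, a change of 1.95 ± 0.55 (limma adjusted p = 0.497). UGT73B4 was low in all 6 of these libraries, with recovered numbers of 18 to 54 in t-chalcone shoots and of 4 to 14 in EtOH shoots. UGT74E2 was the gene with overlapping groups, with 45.8, 41.4 and 109 in t-chalcone shoots and 15.7, 51.0 and 13.1 in EtOH shoots.

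At 3 h in shoots all 7 genes had all 3 t-chalcone libraries above all 3 EtOH libraries, against 10.6% of all genes, with changes of 1.10 to 1.64. None passed limma's threshold, against 0.0306% of all genes, while all 7 had an unadjusted p under 0.05 and edgeR called 6, against 1.14%. The 0.0306% is by adjusted p, and by limma's p the last of the 7, UGT74E2, ranked 1084 of 22884 genes. Without the 3 shallow libraries limma called 6, all but UGT74E2, against 1.63% of all genes. UGT73B1 had 1342, 1716 and 1476 in t-chalcone shoots, against 719, 772 and 617 in EtOH shoots, a change of 1.10 ± 0.45 (limma adjusted p = 0.787 with all libraries and 0.000220 without the 3). UGT73B5 had 1052, 891 and 685 in t-chalcone shoots, against 537, 315 and 233 in EtOH shoots, a change of 1.34 ± 0.41 (limma adjusted p = 0.406 and 0.0149 in the same fits). Both genes were higher in each t-chalcone library than in any EtOH library. UGT74E2 had 476, 379 and 204 in t-chalcone shoots, against 159.8, 159 and 46.8 in EtOH shoots, a change of 1.64 ± 0.79 (limma adjusted p = 1.00). The standard error of UGT74E2 in shoots was the largest of the 7 genes.

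At 6 h in shoots UGT73B2 passed the threshold, against 0.669% of all genes, and 4 of 7 genes had all 3 libraries above all 3, against 23.5%. UGT73B2 had 957, 769 and 1106 in t-chalcone shoots, against 187, 376 and 440.0 in EtOH shoots, a change of 1.57 ± 0.41 (limma adjusted p = 0.0437). The groups were separate, but the call was lost with the library label in the fit (limma, adjusted p = 0.0521) and when any 1 of the 6 libraries was left out (limma, adjusted p of 0.0522 to 0.395). No shoot library at 6 h carries the S-number label either, so that term left the change itself as it was. UGT75B1 had 1612, 1169.8 and 1808 in t-chalcone shoots, against 403, 937 and 971 in EtOH shoots, a change of 1.07 ± 0.31 (limma adjusted p = 0.0918 with all libraries and 0.00509 without the 3 shallow ones). EtOH replicate 1 was the lowest EtOH library at 6 h for all 7 genes. Without the 3 shallow libraries 4 genes rose, UGT73B1, UGT73B2, UGT73B4 and UGT75B1, against 15.4% of all genes, and edgeR called 4, against 6.94%.

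At 12 h in shoots UGT73B5 and UGT75B1 rose, 2 of 7 genes against 0.516% of all genes, and 3 of 7 had all 3 libraries above all 3, against 11.8%. UGT73B5 had 532, 457 and 309.5 in t-chalcone shoots, against 95.2, 40.5 and 142 in EtOH shoots, a change of 2.35 ± 0.41 (limma adjusted p = 0.00359). EtOH replicate 2 is a shallow library with UGT73B5 and UGT73B4 at its lowest value, and without the shallow libraries the change of UGT73B5 was 1.85 ± 0.36 (limma adjusted p = 0.00275). UGT75B1 had 2204, 1517 and 1464 in t-chalcone shoots, against 541, 809.9 and 751 in EtOH shoots, a change of 1.3 ± 0.31 (limma adjusted p = 0.0426). The groups of both genes were separate with and without that library. UGT73B5 missed the threshold without t-chalcone replicate 1 (limma, adjusted p = 0.0532), and UGT75B1 did so without t-chalcone replicate 1, 2 or 3 (limma, adjusted p of 0.0753 to 0.251) and with the library label in the fit (limma, adjusted p = 0.0505). Shoot libraries at 12 h carry no S-number label, so that term left the change of UGT75B1 itself as it was. UGT73B1, with 1.27 ± 0.45 over all libraries, passed without EtOH replicate 1 (1.72, limma adjusted p = 0.00985) or replicate 3 (1.84, limma adjusted p = 0.00899). In EtOH replicate 2 UGT73B1 was at 81.0, and without the shallow libraries its change was 0.24 ± 0.18 (limma adjusted p = 0.549). UGT73B3 passed without any 1 of the EtOH libraries (limma, adjusted p of 0.00922 to 0.0398). UGT73B2 had 1362, 1044 and 1201 in t-chalcone shoots, against 336, 1782 and 473 in EtOH shoots, a change of 0.86 ± 0.41 with all libraries and of 1.58 ± 0.31 without the shallow ones (limma adjusted p = 0.159 and 0.00275). Its shallow EtOH library stood above every t-chalcone library, and the other 2 stood below them. Without the shallow libraries 4 genes rose, UGT73B2, UGT73B3, UGT73B5 and UGT75B1, against 1.97% of all genes, and edgeR called 4, against 1.22%.

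At 24 h in shoots no gene passed, against 0.533% of all genes that rose and 0.612% that fell by limma, while 2 of the 7 had an unadjusted p under 0.05. These were UGT73B4, which ranked 310 of 22884 genes by limma's p, and UGT73B1, which ranked 2160. UGT73B1 and UGT73B2 had all 3 t-chalcone libraries above all 3 EtOH libraries, against 5.41% of all genes. UGT73B4 and UGT74E2 had all 3 below all 3, against 7.70% of all genes. UGT73B4 had 3.28, 17.4 and 11.6 in t-chalcone shoots, against 23.3, 34.7 and 83.8 in EtOH shoots, a change of -2.07 ± 0.55 (limma adjusted p = 0.0630 with all libraries and 0.0216 without the 3 shallow ones). In t-chalcone replicate 2 it was at 17.4, the lowest value that shallow library holds. It passed without EtOH replicate 1 (limma, adjusted p = 0.0286) or t-chalcone replicate 2 (limma, adjusted p = 0.0347), and also with the library label in the fit (limma, adjusted p = 0.0479), where EtOH replicate 2 and t-chalcone replicate 1 carry the S-number. By edgeR it missed the threshold (edgeR adjusted p = 0.182). Its groups were separate. UGT74E2 had 55.7, 87.0 and 67.8 in t-chalcone shoots, against 198, 116 and 189 in EtOH shoots, a change of -1.23 ± 0.79 (limma adjusted p = 0.705). No other gene of the 7 had all 3 below all 3 at any time in either tissue. UGT73B1 had 675, 539.7 and 991 in t-chalcone shoots, against 457, 359 and 293 in EtOH shoots, a change of 0.97 ± 0.45 (limma adjusted p = 0.419 with all libraries and 0.00165 without the 3 shallow ones). UGT73B1 was thus on the other side of EtOH from UGT73B4, and it was the 1 gene of the 7 that edgeR called (edgeR adjusted p = 0.0279), against 1.22% of all genes that rose. Without the shallow libraries 6.08% of all genes rose and 6.68% fell.

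The change differed between times in shoots for 1 gene, UGT73B4 (F test of limma, adjusted p = 0.0109), against 2.68% of all genes. Without the shallow libraries it differed for UGT73B1, UGT73B3 and UGT73B4, 3 of 7 against 33.4% of all genes.

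**Figure D2:**
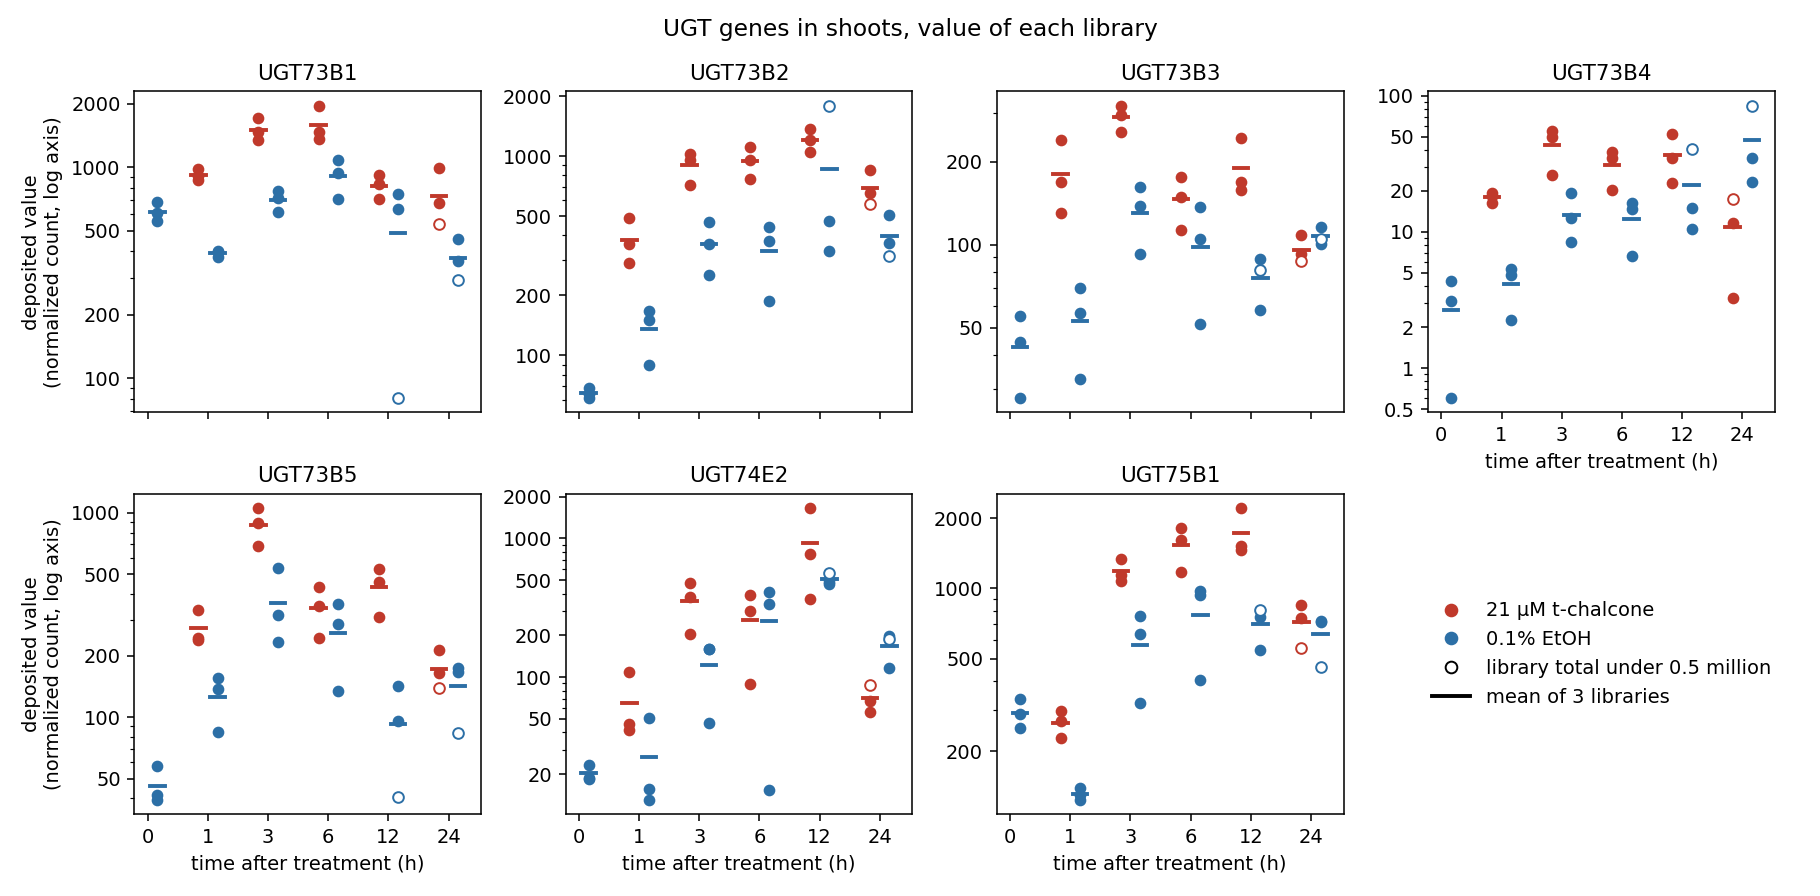
Deposited normalized count (log axis) of each gene in every shoot library by time after treatment (h), t-chalcone in red left of EtOH in blue, with bars at the mean of 3 libraries and open circles for libraries with a recovered total under 0.5 M. The red points of all 7 genes lie above the blue ones at 3 h, and those of UGT73B4 and UGT74E2 lie below them at 24 h.

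Whether the change differed between tissues was tested as the change in roots minus the change in shoots. UGT73B5 at 12 h passed, at -2.14 ± 0.44 (limma adjusted p = 0.0170), against 0.149% of all genes in either direction. It had 415, 471 and 439.8 in t-chalcone roots at 12 h, against 342, 388 and 420.2 in EtOH roots, so its root groups overlapped while its shoot groups were separate. It missed the threshold without EtOH roots replicate 2 or 3, EtOH shoots replicate 2 or t-chalcone shoots replicate 1 (limma, adjusted p of 0.0535 to 0.111), at -2.13 to -1.64. Without the libraries under 0.5 M UGT73B2 (-1.38 ± 0.34, limma adjusted p = 0.0265) and UGT73B5 (-1.64 ± 0.38, limma adjusted p = 0.0173) passed at 12 h, against 1.04% of all genes. For UGT75B1 at 1 h the difference was 1.92 ± 0.48 (limma adjusted p = 0.0971 with all libraries and 0.000948 without those under 0.5 M, where 1.45% of all genes passed). UGT75B1 had 227, 298 and 269.8 in t-chalcone shoots at 1 h, against 139, 124 and 129.5 in EtOH shoots, separate groups with a change of 1.00 ± 0.31, beside 2.92 ± 0.34 in roots.

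UGT75B1 at 3 h passed when EtOH roots replicate 3 was left out (2.11, limma adjusted p = 0.0103), the setting in which the shallow EtOH library at its lowest value was 1 of 2. At 1, 3, 6 and 24 h none of the 7 genes passed the test of the tissue difference in limma with all libraries, against 0.118%, 0.0655%, 0.201% and 1.31% of all genes. At those times 1, 1, 0 and 1 of the 7 had an unadjusted p under 0.05, and edgeR called 1, 0, 0 and 0, against 2.06%, 1.14%, 3.07% and 4.50%. Without the libraries under 0.5 M UGT73B1 and UGT73B4 passed at 24 h, against 16.8% of all genes. A difference that missed the threshold does not show that the tissues responded alike.

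**Figure D3:**
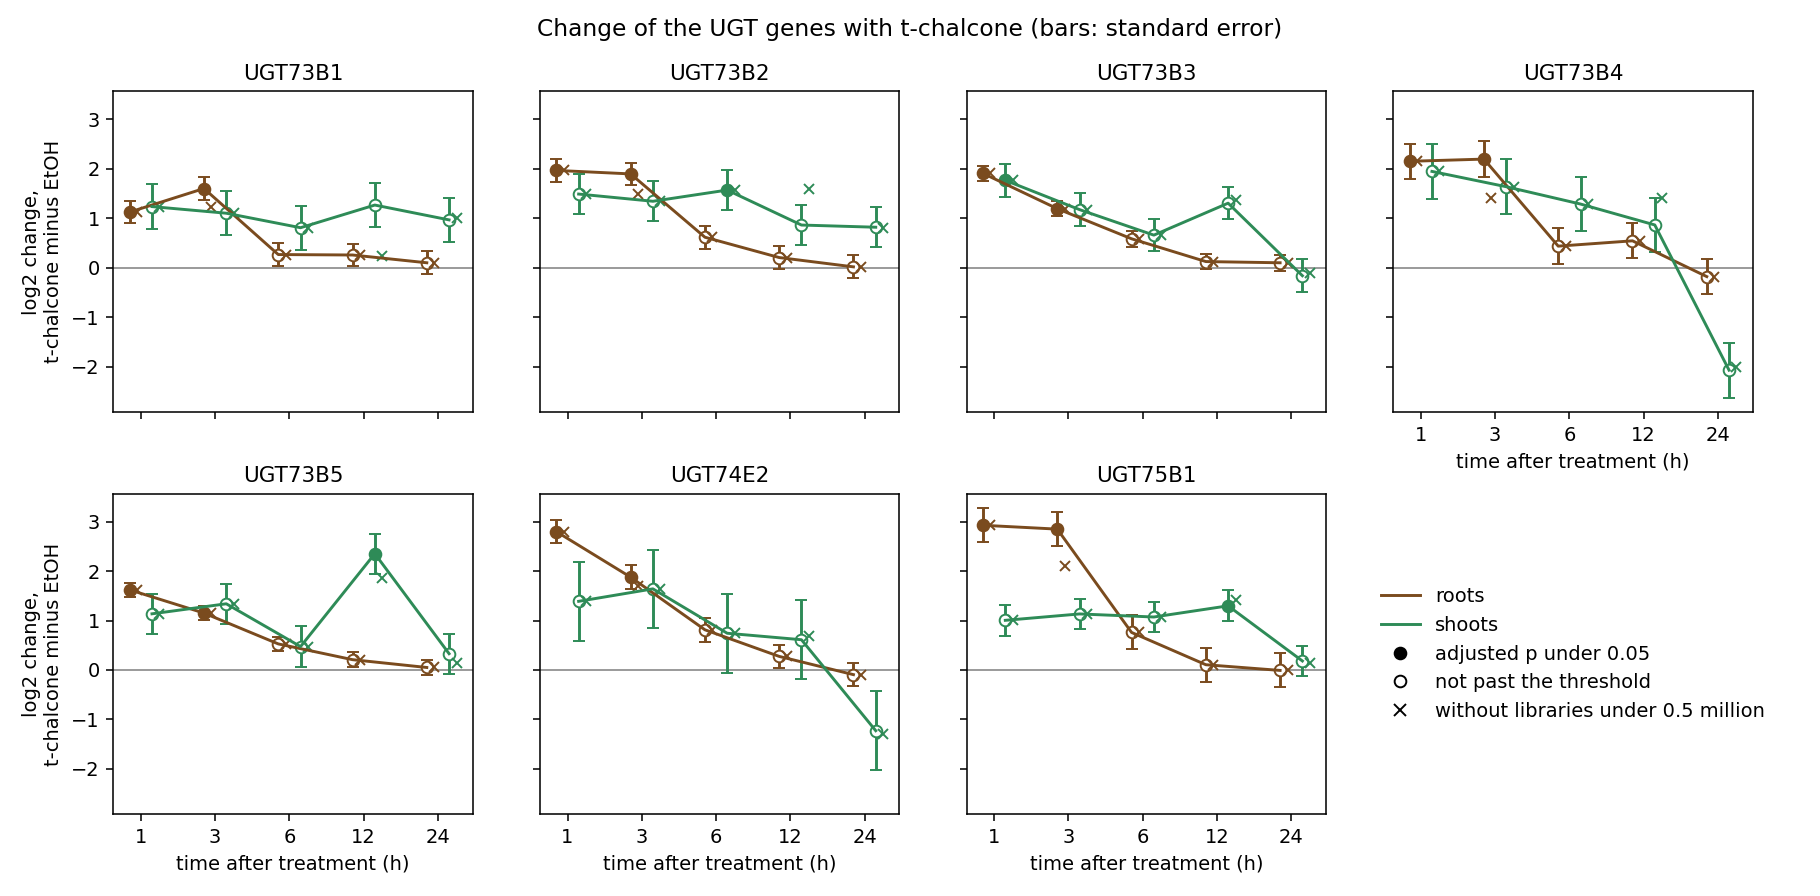
Change of each gene on the log2 scale (t-chalcone minus EtOH, bars are the standard error of limma) by time (h) in roots and shoots, with filled circles past an adjusted p of 0.05 and crosses for the fit without libraries under 0.5 M. Root changes of all 7 genes are filled at 1 and 3 h and lie between -0.18 and 0.10 at 24 h, and shoot changes of all genes but UGT75B1 carry wider bars than root changes.

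The EtOH seedlings also changed over time. In roots 3 of 7 genes did so (F test of limma), UGT73B1, UGT73B2 and UGT74E2, against 35.8% of all genes. UGT74E2, known to respond to hydrogen peroxide, had 378, 403 and 347 in EtOH roots at 0 h, 138, 89.4 and 110.4 at 1 h and 28.5, 61.6 and 57.6 at 6 h. At 6 h its change from 0 h was -2.98 ± 0.24 (limma adjusted p = 2.36e-10), against 8.90% of all genes that fell. The t-chalcone root libraries at 1 h stood above the EtOH libraries of both 0 h and 1 h, and those at 6 h stood below the EtOH libraries of 0 h. UGT73B1 and UGT73B2 rose in EtOH roots between 0 and 1 h, by 1.19 ± 0.23 and 0.93 ± 0.23 (limma, adjusted p = 0.000277 and 0.00342), against 16.2% of all genes. EtOH roots replicate 1 at 0 h is a library under 0.5 M, and by edgeR these rises were 1.33 and 0.66.

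In shoots all 7 genes changed over time in EtOH (F test of limma), against 41.3% of all genes. UGT73B2 had 468, 364 and 253 in EtOH shoots at 3 h, against 63.8, 68.5 and 61.5 at 0 h, a rise of 2.42 ± 0.41 (limma adjusted p = 0.000382), and 3.46% of all genes rose at 3 h. UGT73B5 had 537, 315 and 233 at 3 h, against 39.3, 57.4 and 41.4 at 0 h, a rise of 2.88 ± 0.41 (limma adjusted p = 5.18e-05). Neither gene's EtOH groups overlapped between these times. UGT74E2 had 470.1, 567 and 482 at 12 h, against 18.4, 23.5 and 18.9 at 0 h, a rise of 4.58 ± 0.79 (limma adjusted p = 0.000107), and 12.3% of all genes rose at 12 h. The 567 comes from the library under 0.5 M, and by edgeR the rise was 4.52. UGT75B1 was lower at 1 h than at 0 h, with a change of -1.14 ± 0.31 (limma adjusted p = 0.0122), where 8.67% of all genes fell. At 6 h it was higher than at 0 h, by 1.31 ± 0.31 (limma adjusted p = 0.00804), where 3.93% of all genes rose. Plates were treated 7 h after lights on. The 24 h samples fall at the same time of day as those of 0 h. At 24 h 6 of 7 genes were higher in EtOH shoots than at 0 h (limma), and 1658 of 22884 genes rose. UGT73B4 rose by 3.68 ± 0.55, UGT74E2 by 2.96 ± 0.79 and UGT73B2 by 2.57 ± 0.41, while UGT73B1 did not pass (-0.76 ± 0.45). That group holds a library under 0.5 M. In EtOH roots 2 of 7 were higher and 1 lower at 24 h. Time since treatment and the EtOH itself cannot be told apart, nor can time of day at 1, 3, 6 and 12 h.

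The EtOH level of 6 of 7 genes differed between roots and shoots when averaged over the 6 times, against 67.6% of all genes. On the log2 scale roots were higher by 3.22 ± 0.20 for UGT73B4, 2.63 ± 0.11 for UGT73B3, 1.66 ± 0.13 for UGT73B5, 0.68 ± 0.14 for UGT73B2 and 0.47 ± 0.15 for UGT73B1. For UGT75B1 the difference was -2.05 ± 0.14, with roots lower. UGT74E2 did not pass (limma adjusted p = 0.0769). Its roots minus shoots difference was 4.16 ± 0.60 at 0 h, where 24.5% of all genes were higher in roots, and -2.47 ± 0.60 at 12 h, where 24.1% were lower in roots. Each rests in part on a library under 0.5 M. Without it the mean of UGT74E2 was 375 in EtOH roots at 0 h, beside 376 with it. In EtOH shoots at 12 h it was 476, beside 506. In order of group means, t-chalcone roots at 1 h were highest for UGT73B2, UGT73B3, UGT73B4 and UGT73B5. For UGT74E2 and UGT75B1 it was t-chalcone shoots at 12 h. There UGT74E2 averaged 925 ± 655 (SD, n = 3), which its spread does not separate from the next group, t-chalcone roots at 1 h with 778 ± 69.4 (SD, n = 3). The lowest mean was in EtOH shoots at 0 h for UGT73B2, UGT73B3, UGT73B4, UGT73B5 and UGT74E2, in EtOH shoots at 24 h for UGT73B1 and in EtOH roots at 0 h for UGT75B1. Both of these places rest on libraries under 0.5 M. Without them UGT73B1 was lowest in EtOH roots at 0 h, with 324 ± 22.4 (SD, n = 2), and averaged 408 ± 69.5 in EtOH shoots at 24 h (SD, n = 2). UGT75B1 was then lowest in EtOH roots at 6 h, with 98.7 ± 32.7 (SD, n = 3), which its spread does not separate from 100.5 ± 3.05 at 12 h (SD, n = 3) or 105 ± 3.62 at 0 h (SD, n = 2).

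The tissue labels were checked against markers. A sum over 8 root genes was 3492 to 6306 in root libraries and 131 to 521 in shoot libraries, and a sum over 7 leaf genes was 671 to 4351 in root libraries and 125795 to 446021 in shoot libraries. The 4351 came from EtOH roots replicate 1 at 0 h, a library under 0.5 M. The other libraries of that group, the baseline for EtOH roots over time, had 718 and 968. Since several of the UGT73B genes were higher in roots, the root sum in shoots was set beside their shoot changes. In shoots PHO1 had a median of 249, and the other root genes had medians of 4.0 to 17.4. By these medians PHO1 was the largest part of the root sum in shoots. Whether the sum differed between groups through PHO1 or through root material was not tested. At 1 h this sum was 382 ± 77.4 in t-chalcone shoots and 288 ± 76.6 in EtOH shoots (SD, n = 3 each), and its part in the changes of that time was not tested. At 3 h it was 238 ± 54.3 in t-chalcone shoots and 304 ± 67.1 in EtOH shoots (SD, n = 3 each). At 6 h it was 195 ± 57.5 in t-chalcone shoots and 291 ± 69.4 in EtOH shoots, at 12 h 462 ± 53.7 and 429 ± 99.1, and at 24 h 399 ± 115 and 379.9 ± 115, in the same order (SD, n = 3 each). At 12 h the order turned without the EtOH library under 0.5 M, with 462 in t-chalcone shoots and 481 in EtOH shoots. Some other sums had separate ranges in t-chalcone and EtOH libraries. The root sum in roots was lower with t-chalcone at 1 h, at 3926 to 5202 in t-chalcone roots and 5562 to 6306 in EtOH roots. It was also lower at 12 h (4018 to 4575 in t-chalcone roots, 4611 to 6229 in EtOH roots) and at 24 h (4315 to 4791 and 4909 to 5052, in the same order). The leaf sum in shoots was higher with t-chalcone at 1 h, at 213517 to 231709 in t-chalcone shoots and 190043 to 204407 in EtOH shoots. It was lower at 3 h (159523 to 221945 in t-chalcone shoots, 230057 to 266673 in EtOH shoots) and at 6 h (125795 to 160809 and 187337 to 190314, in the same order). With shallow libraries left out it was higher at 12 h (321895 to 340580.0 in t-chalcone shoots, 253696 to 287888 in EtOH shoots) and lower at 24 h (254102 to 261846 and 289685 to 296192, in the same order). The leaf sum in roots was lower at 6 h, at 671 to 1370.0 in t-chalcone roots and 1387 to 1519 in EtOH roots. The part of these sums in the changes of the 7 genes was not tested. In these bulk samples fewer cells of a type and less RNA per cell cannot be told apart. Recovered totals were 0.128 to 22.5 M in roots, with 2 libraries under 0.5 M, and 0.246 to 26.0 M in shoots, with 3.

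Other UGT genes were taken by RefSeq symbol (UGT, 2 digits, a letter and a number). A family member under any other symbol was left out, so the ranks below may not cover the whole family. The other UGT genes tested numbered 42 in roots and 48 in shoots. In roots at 1 h 5 of the 42 rose and 5 fell, against 1.57% of all genes that rose and 3.04% that fell, and their median change was -0.10. UGT73C7 rose by 1.84 ± 0.37 and UGT87A2 by 1.37 ± 0.30, while UGT71C1 fell by 1.16 on the log2 scale. By edgeR 10 of the 42 rose and 9 fell, against 6.00% of all genes that rose and 8.93% that fell. At 3 h 12 of the 42 rose and none fell by limma, against 10.3% of all genes that rose and 3.26% that fell, led by UGT87A2 at 2.25 ± 0.30, UGT84A3 at 1.60 ± 0.35 and UGT73C7 at 1.42 ± 0.37. UGT84A3 belongs to a group known for glucosylating hydroxycinnamic acids. By edgeR 7 of the 42 rose and 4 fell at 3 h, against 6.28% of all genes that rose and 6.58% that fell. With libraries under 0.5 M left out 7 of 41 rose and 2 fell, against 5.47% and 3.07% of all genes. At 24 h in roots UGT76D1 fell by 0.91 on the log2 scale (limma adjusted p = 0.0420), against 1.85% of all genes. It missed the threshold by edgeR (edgeR adjusted p = 0.0634) and with TMM scaling (limma adjusted p = 0.0954). With the library label in the fit it missed too (limma adjusted p = 1.00), but label and treatment coincide in roots at 24 h, so that fit cannot decide. In shoots at 6 h 3 of the 48 rose, against 0.669% of all genes, UGT71B1 by 1.53 ± 0.35, UGT74F1 by 1.52 ± 0.40 and UGT84A3 by 1.14 ± 0.25, and UGT84A3 rose by 1.70 ± 0.25 at 12 h, 1 of the 48 against 0.516%. Without the shallow libraries 11 of 41 rose at 6 h, against 15.4% of all genes. At 24 h in shoots UGT78D1, a flavonol rhamnosyltransferase gene, fell by 1.08 on the log2 scale (limma adjusted p = 0.0286), against 0.612% of all genes that fell. Ranked by change among these UGT genes with the 7 included, 6, 5, 2, 1 and 0 of the 7 were in the top 7 in roots at 1, 3, 6, 12 and 24 h. In shoots at those times 6, 4, 2, 2 and 2 were. The lowest of the 7 ranked 9 of 49 in roots at 1 h and 34 at 24 h, and 8 of 55 in shoots at 1 h and 55, the last place, at 24 h.

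**Figure D4:**
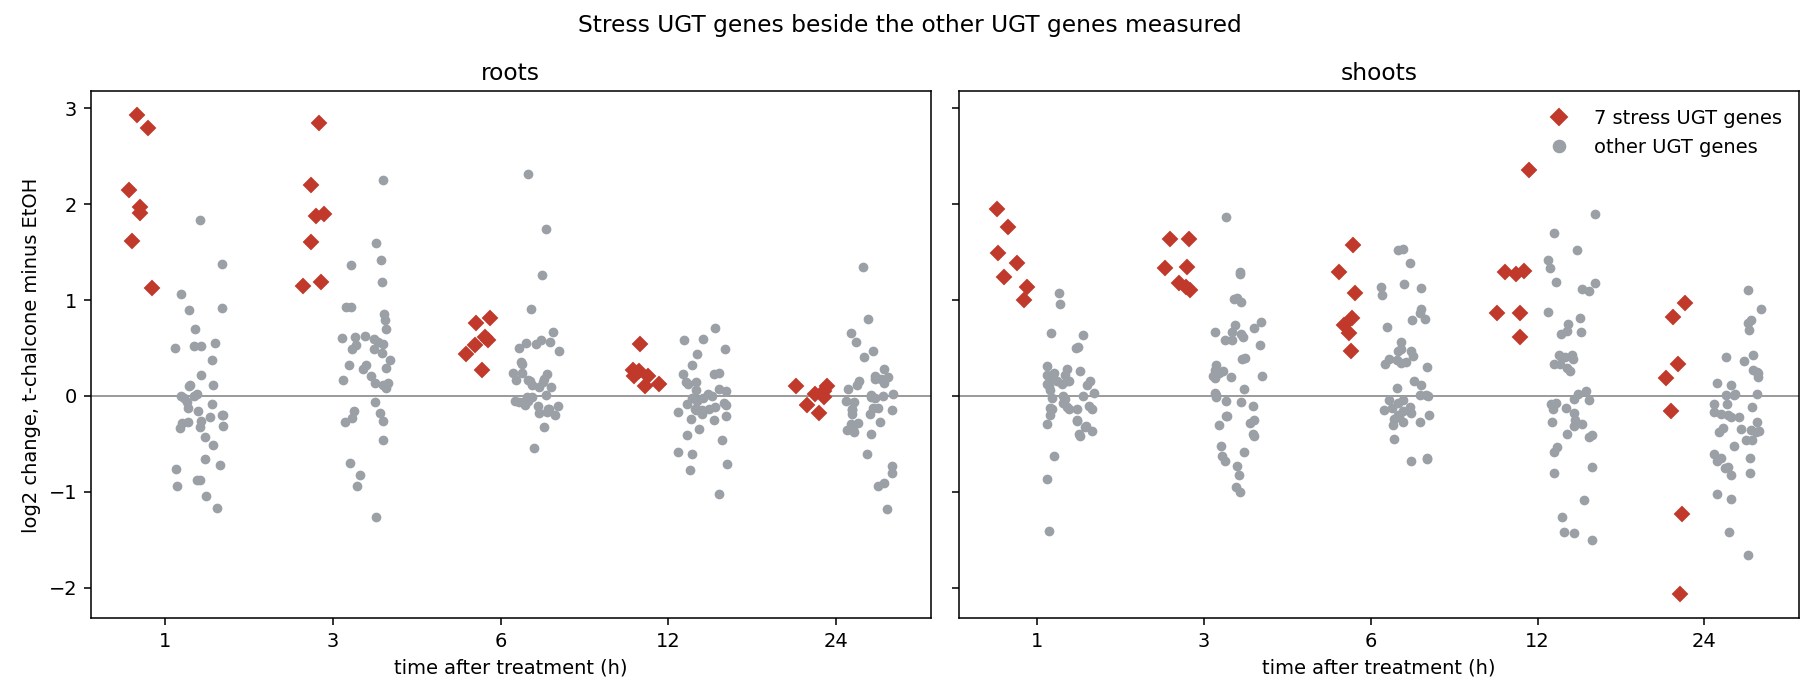
Change on the log2 scale (t-chalcone minus EtOH) by time (h) in roots and shoots, with red diamonds for the 7 genes and grey circles for the other UGT genes tested, spread sideways only for legibility. In roots at 1 h the 7 genes lie between 1.13 and 2.92, and the highest other UGT gene, UGT73C7, is at 1.84.

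Of 4 transporter genes, 3 rose in roots at 1 h, ABCC2 by 1.63 ± 0.20, ABCC1 by 1.52 ± 0.17 and ABCC3 by 0.80 ± 0.19, against 1.57% of all genes. ABCC1 and ABCC2 are known as pumps that load glutathione and other conjugates into the vacuole. All 4 rose at 3 h, against 10.3% of all genes, among them the exporter DTX1 by 1.31 ± 0.34, ABCC3 by 1.3 ± 0.19 and ABCC2 by 1.28 ± 0.20. All but DTX1 did so without the libraries under 0.5 M, 3 of 4 (limma adjusted p = 0.0643 for DTX1), against 5.47% of all genes. The median change of the 4 was 1.16 at 1 h and 1.29 at 3 h, beside -0.01 and 0.15 over all genes. In shoots none of the 4 passed in limma at any time, 1 had an unadjusted p under 0.05 at 12 h and none at the other times, and edgeR called 1 at 6 h, against 6.94% of all genes. Without the shallow libraries 2, 1 and 1 passed in shoots at 3, 6 and 12 h, against 1.63%, 15.4% and 1.97% of all genes. Of 8 regulator genes, the stress-responsive NAC032 (1.33 ± 0.36) and NAC102 (1.09 ± 0.18) rose in roots at 1 h, against 1.57% of all genes. At 3 h NAC032 (1.59 ± 0.36), NAC102 (1.03 ± 0.18) and NAC013 (0.92 ± 0.29) rose, against 10.3% of all genes, and SCL14, TGA2, TGA5, TGA6 and NAC017 passed at neither time. NAC013 missed the threshold with TMM scaling (limma adjusted p = 0.0535) and without the libraries under 0.5 M (limma adjusted p = 0.146). The median change of the 8 was 0.17 at 1 h and 0.52 at 3 h. In shoots NAC032 rose at 6 h (1.3 ± 0.31), though not with TMM scaling (limma adjusted p = 0.0645), and NAC102 at 12 h (1.65 ± 0.37), 1 of 8 at each time against 0.669% and 0.516% of all genes. Of 9 genes for making UDP-glucose, SUS6 fell in roots at 1 h by 1.04 on the log2 scale, against 3.04% of all genes. At 3 h in roots SUS3 (1.43 ± 0.24) and SUS1 (0.82 ± 0.18) rose and SUS4 fell (-1.20 ± 0.25), against 10.3% of all genes that rose and 3.26% that fell. UGP2 fell in shoots at 24 h by 1.06 on the log2 scale, against 0.612%. Over the 9 genes the root changes had a median of -0.16 at 1 h and -0.11 at 3 h. SUS genes encode sucrose synthases, and UGP2 encodes UDP-glucose pyrophosphorylase.

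For each of the 7 genes, the genes with the most similar 10 changes (5 times in 2 tissues) were looked up among 15121 genes by Pearson's r. The 10 values share the libraries and the depth of each time, and the r values are descriptions. UGT73B3 was closest to the glutathione transferase gene GSTU24 (r = 0.96) and the cytochrome P450 gene CYP81D11 (r = 0.94). UGT73B1 was closest to AT2G22650 (r = 0.96) and the glutathione transferase gene GSTU7 (r = 0.94). UGT73B2 was closest to AT4G13180 (r = 0.98) and AT4G24370 (r = 0.94). UGT73B5 was closest to LSF1 (r = 0.98) and NAC102 (r = 0.95). UGT75B1 was closest to the cytochrome P450 gene CYP72A15 (r = 0.97) and to AT4G01870 (r = 0.97). UGT73B4 was closest to AT2G20560 (r = 0.98) and AT5G63010 (r = 0.96). UGT74E2 was closest to UGT73B4 (r = 0.93), then to Hop3 and AT1G60750 (r = 0.93 each). Between the 7 genes r ran from 0.48 (UGT73B1 with UGT73B4 and with UGT74E2) to 0.93, and UGT73B4 and UGT73B5, neighbours with similar coding sequences, had r = 0.54.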

How the data were processed

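The deposited table gives, per gene and library, a signal: read counts per gene scaled by the authors with size factors (DESeq2 1.14.1, build TAIR10, per the submitters' processing notes). Libraries came from an Illumina TruSeq RNA kit, per the labels' protocols. No aligner, counter or use of strand was found in the labels or the file. Values were whole multiples of each column's lowest value within 0.01, which gave recovered whole numbers and the totals that stand for depth. Lowest values ran from 0.302 to 40.5 and were held by 5.40% to 77.8% of a library's genes. The sources do not say whether 1 was added to each count, so a recovered 1 may stand for no reads. The totals and edgeR used the numbers as recovered. No column belonged to a sample outside the series.

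Genes were kept where 3 or more libraries reached 10. In shoots and over all 66 libraries that left every gene in, since 3 shallow shoot libraries have lowest values of more than 10. limma 3.58.1 (R 4.3.3, mean-variance trend) was fitted on log2(value + 1) to all 33 libraries of a tissue, and to all 66 for differences between tissues. The two-sided p-values were adjusted by Benjamini-Hochberg over all genes kept. The scale understates changes of low genes. The fit was tested on simulated data. Alternatives were a pseudocount of 10, no filter, TMM scaling, edgeR 4.0.16 on the recovered whole numbers, libraries under 0.5 M left out, the S-number label (7 libraries) as a term, and each library left out in turn. The 7 genes, the lists and the tests were chosen with earlier results of these data known. Named beside the 7 are, per list and comparison, the 3 largest changes past the threshold, and, per gene of the 7, the 2 genes with the most similar changes among genes with a mean of at least 50. Symbols, gene positions and upstream windows come from RefSeq's TAIR10.1, in which 22708 of 22884 identifiers were found. Coding sequences were aligned with Biopython 1.88, using the longest one among the gene's RefSeq protein records with the shortest accessions; this choice was made after the longest of UGT73B5 proved to hold an exon of UGT73B4.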

Additional observations from a re-analysis of the deposited data

Results flagged for a closer look

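The change of UGT73B5 with t-chalcone at 12 h differed between tissues, at -2.14 ± 0.44 on the log2 scale for roots minus shoots (limma, interaction in the fit of all 66 libraries, adjusted p = 0.0170). All 3 t-chalcone shoot libraries lay above all 3 EtOH shoot libraries, and the root groups overlapped. EtOH shoots replicate 2 is a library under 0.5 M in which this gene is at the lowest value, and without such libraries the difference was -1.64 (limma, adjusted p = 0.0173). With only that library left out it was also -1.64 but missed the threshold (limma, adjusted p = 0.0729). The call was also lost without EtOH roots replicate 2 or 3 or t-chalcone shoots replicate 1 (limma, adjusted p of 0.0535 to 0.111). The cause was not tested.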

How the results depend on the processing

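All 7 genes passed in roots at 1 h and at 3 h under every alternative run, and no value reversed. With edgeR the number of the 7 genes called was 3 in roots at 6 h, 1 in roots at 12 h, 4, 6, 4, 4 and 1 in shoots at 1, 3, 6, 12 and 24 h, 7 for EtOH over time in roots, 1 for the tissue difference at 1 h and 2 for the change over time in shoots, the last 3 against 56.7%, 2.06% and 13.5% of all genes. Without libraries under 0.5 M it was 3 in roots at 6 h, 3, 6, 4, 4 and 2 in shoots at 1, 3, 6, 12 and 24 h, 1, 2 and 2 for the tissue difference at 1, 12 and 24 h, and 3 for the change over time in shoots. With TMM scaling it was 1 in roots at 6 h, against 0.650% of all genes, and TMM moved the median change of all genes by -0.14 in roots at 3 h, by 0.14 in roots at 24 h and by 0.10 in shoots at 12 h. With the library label as a term it was 0, 0, 1 and 1 in shoots at 1, 6, 12 and 24 h, against 0.0218%, 1.55%, 0.673% and 1.22%. With a pseudocount of 10 it was 1 in shoots at 24 h and 1 for the tissue difference at 1 h, against 1.36% and 0.433%. The cause of these shifts was not tested. Without the libraries under 0.5 M the filter kept 19116 genes in shoots, against 22884, so the adjustment changed along with the spread. In shoots the S-number occurs at 24 h only, so at 1, 6 and 12 h that term left the changes themselves as they were. With each library left out in turn, counts were 7 to 7 in roots at 1 and 3 h, 0 to 0 in roots at 6, 12 and 24 h, 0 to 1, 0 to 0, 0 to 0, 0 to 4 and 0 to 1 in shoots at 1, 3, 6, 12 and 24 h, and 0 to 1 and 0 to 3 for the tissue difference at 3 and 12 h. Shares of all genes were not taken with single libraries left out, so these counts do not show whether all genes moved with the 7. Of 1512 values of single genes under an alternative, 22 lost and 61 gained a call, and 57 with no call on either side changed sign. No paired analysis was possible because replicate numbers follow the order of the samples, not the labels, and pair no libraries. In libraries under 0.5 M a low gene cannot be told from one without reads.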
